A study of Mus musculus with 4 samples.

Results

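The 10 genes described here mark basophils and mast cells, and they were followed in the mRNA of lung CD11b+Ly6g+ MDSCs. They were chosen by name among the 54532 genes of the count table: Prss34, Mcpt8, Cpa3, Ms4a2, Fcer1a, Gata2, Il4, Cd200r3, Kit and Hdc. The choice was made because Prss34 and Mcpt8 were higher in the peptide libraries than in the control library, so the levels below are a description and no test was made on them.

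All mice were C57BL/6, 6 to 8 weeks old, and all carried the pre-metastatic niche (PMN) model, the control group included. The model consisted of 300 μl of MCM, the medium conditioned by B16F10 melanoma cells, given into the peritoneum on 10 consecutive days, with 100000 B16F10 cells delivered by tail vein on day 7. The control mice (Ctrl) got no peptide, whereas TP5, sFD17 or FR17 was given under the skin at 40 μM/kg/day from day 3, and lungs were taken on day 10. TP5 is thymopentin as a free pentapeptide. FR17 carries the same pentapeptide on a self-assembling peptide through a linker that MMP2 cleaves, and sFD17 is built like FR17 but carries the pentapeptide in scrambled order. CD11b+Ly6g+ cells were sorted from digested lungs and pooled from 10 to 12 mice into 1 library per group, so no difference below has a replicate check, and each compares libraries rather than conditions.

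Basophils are rare granulocytes of the blood and mast cells are long-lived granule-filled cells of tissues, and both are armed by IgE bound to the high-affinity receptor FcεRI. When the receptor is cross-linked they release histamine, proteases and lipid mediators, and they make type 2 cytokines such as IL-4. Mouse basophils are known for the granule proteases encoded by Prss34 and Mcpt8, and connective tissue mast cells for Cpa3, chymases, tryptases and high KIT. Both lineages depend on the transcription factor GATA2. Neither is the cell that a CD11b+Ly6g+ gate is meant to collect, since Ly6g marks neutrophils and granulocytic MDSCs.

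The libraries held 17132880 counts (Ctrl), 17165184 (TP5), 15543071 (sFD17) and 19638228 (FR17). Of the genes, 16367 reached 10 counts in at least 1 library and were compared, all 10 members among them. Levels are CPM, counts relative to a library size that TMM scaling adjusts so that the libraries line up on the bulk of their genes. The 95% intervals of levels and folds are exact and cover counting error only. A gene was called higher or lower when the log2 fold change, computed with a prior count of 2, reached 2-fold. Neutrophil markers held 3.56% of the counts in Ctrl and between 3.70% and 3.98% in the peptide libraries. The 9 members other than Hdc together held 0.00291%, 0.00401%, 0.00413% and 0.00658% of the counts in Ctrl, TP5, sFD17 and FR17, so their transcripts were a trace in every library. In bulk RNA, fewer cells of a type and less RNA per cell cannot be told apart.

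The promoters of the members are shown for 4 genes that behaved differently in these libraries. With TMM scaling and a prior count of 2, Prss34 and Mcpt8 were called higher than Ctrl in all 3 peptide libraries. Cpa3 was called higher in FR17, and Ms4a2 had no call against Ctrl. Sequences are the reference bases before the RefSeq start on GRCm38.p6, read 5′ to 3′ on the strand of the gene. They cover chr17:25298144-25298393 on the plus strand for Prss34, chr14:56085274-56085447 on the minus strand for Mcpt8, chr3:20242182-20242431 on the minus strand for Cpa3 and chr19:11623720-11623969 on the minus strand for Ms4a2. The Mcpt8 stretch is 174 bases long because it stops where the gene model of the count table begins, and the other 3 are 250 bases. Capitals mark motifs found on either strand. The GATA motif searched is AGATAA, with T also allowed as the first letter and G as the last, and the RUNX motif is TGTGGT.
Prss34: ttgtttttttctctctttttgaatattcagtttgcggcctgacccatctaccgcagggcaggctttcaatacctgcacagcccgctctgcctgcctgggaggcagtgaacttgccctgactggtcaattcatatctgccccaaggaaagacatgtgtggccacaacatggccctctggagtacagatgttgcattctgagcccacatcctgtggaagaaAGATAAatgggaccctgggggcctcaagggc
Mcpt8: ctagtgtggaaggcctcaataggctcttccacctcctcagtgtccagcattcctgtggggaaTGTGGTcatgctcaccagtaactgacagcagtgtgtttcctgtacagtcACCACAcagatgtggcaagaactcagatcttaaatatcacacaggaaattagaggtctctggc
Cpa3: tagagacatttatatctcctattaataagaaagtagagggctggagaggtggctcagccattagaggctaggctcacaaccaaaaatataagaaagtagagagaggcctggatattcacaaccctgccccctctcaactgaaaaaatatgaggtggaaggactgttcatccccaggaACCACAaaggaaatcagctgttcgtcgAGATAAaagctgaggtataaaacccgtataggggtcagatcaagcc
Ms4a2: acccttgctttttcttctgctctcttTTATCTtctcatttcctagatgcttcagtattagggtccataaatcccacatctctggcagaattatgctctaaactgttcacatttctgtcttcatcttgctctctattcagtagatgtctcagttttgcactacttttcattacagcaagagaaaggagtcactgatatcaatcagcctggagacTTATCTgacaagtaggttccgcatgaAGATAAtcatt

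RefSeq had a promoter for all 10 members, with 13 start sites in all. A GATA motif stood within 250 bases of the start in 7 of the 10 genes (Prss34, Cpa3, Ms4a2, Fcer1a, Il4, Cd200r3 and Hdc), or 7 of the 13 start sites, and 26.5% of the 32851 mouse promoters of that length held one. Counted from the first base of the motif, it lay 31 bases before the start of Prss34 and 46 bases before that of Cpa3, and Ms4a2 had 3, at 224, 37 and 11 bases. A RUNX motif was found in Mcpt8, Cpa3 and Fcer1a, against 14% of all promoters. In Mcpt8 it occurred 188 and 139 bases before the RefSeq start. The STAT motif TTCNNNGAA was in none of the 13 windows and in 7.02% of all promoters. These matches describe letters only, and neither binding nor activity was measured at any of them. With TMM scaling and a prior count of 2, Prss34 was called higher in all 3 peptide libraries and Ms4a2 was called in none against Ctrl. Both held a GATA motif, and Mcpt8, also called in all 3, held none.

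Prss34 and Mcpt8 were the only members called higher in all 3 peptide libraries with TMM scaling. Prss34 (ENSMUSG00000056399, chr17:25298394-25300161) encodes mast cell protease 11, a tryptase-like serine protease of basophil granules. It had 18 counts in Ctrl, 58 in TP5, 62 in sFD17 and 209 in FR17, or 1.07, 3.31, 4.70 and 9.105 CPM. Ctrl was the lowest library and FR17 the highest, with TP5 and sFD17 between them. Against Ctrl, Prss34 rose 3.10-fold in TP5 (95% counting interval 1.80 to 5.60), 4.41-fold in sFD17 (2.57 to 7.92) and 8.54-fold in FR17 (5.28 to 14.7).

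Mcpt8 (ENSMUSG00000022157, chr14:56082166-56085273) encodes mast cell protease 8, which in spite of its name is a granzyme-like protease of basophils. Ctrl had 18 counts of it, TP5 57, sFD17 32 and FR17 105. The same library was lowest and the same library highest as for Prss34, but TP5 and sFD17 changed places. Mcpt8 rose 3.05-fold in TP5 (1.77 to 5.51), 2.275-fold in sFD17 (1.24 to 4.31) and 4.29-fold in FR17 (2.59 to 7.52). The call in sFD17 was lost when libraries were scaled by their size alone. Summed, the pair stood at 36, 115, 94 and 314 counts in Ctrl, TP5, sFD17 and FR17, a fold of 3.08, 3.34 and 6.42 against Ctrl.

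**Figure D1:**
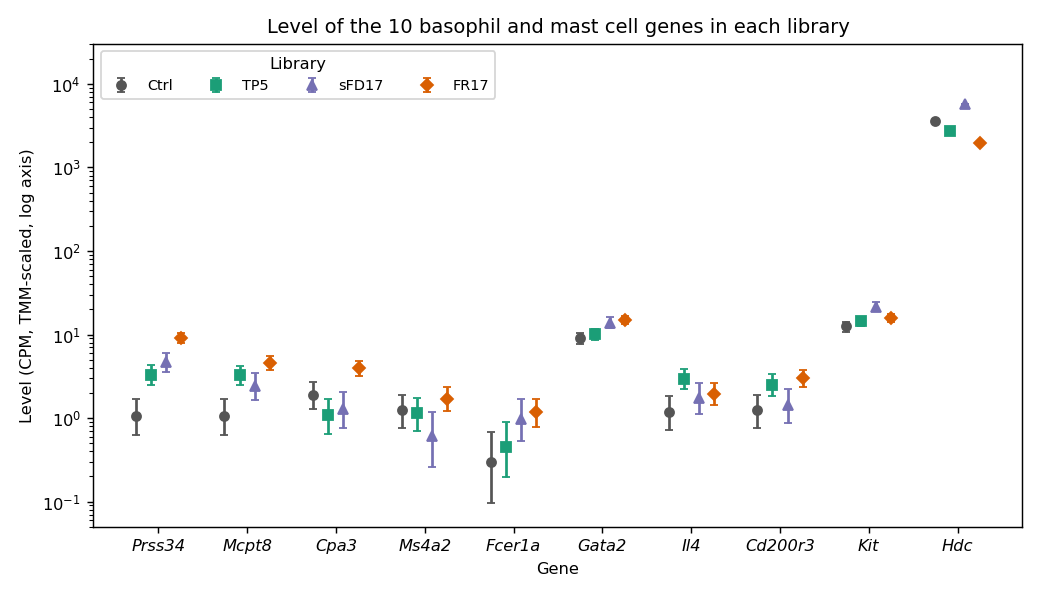
Level of each of the 10 genes (x axis) in the 4 libraries (y axis, TMM-scaled CPM, log axis), where points are single libraries and bars are exact 95% Poisson intervals for counting error. Prss34 goes from 1.07 CPM in Ctrl to 9.105 CPM in FR17, while Hdc stands far above the others, at 1941 to 5702 CPM.

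Cpa3 (chr3:20215620-20242181) encodes carboxypeptidase A3, which is stored in mast cell granules and is also transcribed in basophils. It had 32 counts in Ctrl, 19 in TP5, 17 in sFD17 and 90 in FR17. Unlike the basophil proteases, Ctrl stood above TP5 and sFD17. Cpa3 rose 2.07-fold in FR17 (1.37 to 3.20), whereas its fold was 0.572 in TP5 (0.306 to 1.04) and 0.680 in sFD17 (0.354 to 1.26), with neither called. The rise in FR17 was only just past the threshold, at 1.01 on the log2 scale, and was not called with DESeq2 size factors.

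The α and β chains of the IgE receptor were scarce, whereas Fcer1g, which encodes the γ chain that other Fc receptors of myeloid cells share, had 10556, 9115, 9076 and 12200 counts in Ctrl, TP5, sFD17 and FR17. Fcer1a (chr1:173221284-173227214), the chain that binds IgE, had 5, 8, 13 and 27 counts in Ctrl, TP5, sFD17 and FR17. Every peptide library was above Ctrl, and the intervals were wide at these depths. Fcer1a rose 3.33-fold in sFD17 (1.11 to 11.9) and 3.97-fold in FR17 (1.51 to 13.2), and its fold in TP5 was 1.54 (0.444 to 5.99). Ms4a2 (chr19:11615523-11623719), the signal-amplifying β chain, had 21, 20, 8 and 39 counts. It was not called against Ctrl in any peptide library, with folds of 0.917 in TP5, 0.488 in sFD17 (0.187 to 1.15) and 1.37 in FR17 (0.784 to 2.45). In sFD17 its log2 fold change was -0.915, and it was called lower with library size alone or a prior count of 0.5. The α and β chains therefore did not stand in the same order across the libraries: sFD17 was above Ctrl for Fcer1a, and the lowest of the 4 for Ms4a2.

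Gata2 (chr6:88193891-88207032) had 152 counts in Ctrl, and 177, 183 and 346 in the TP5, sFD17 and FR17 libraries, with narrower intervals than the proteases. Ctrl was again lowest and FR17 highest. The folds of 1.12 (0.898 to 1.40), 1.54 (1.24 to 1.92) and 1.675 (1.38 to 2.04) stayed under the 2-fold call. Kit (chr5:75574916-75656722), the receptor for stem cell factor on which mast cells depend and which progenitors also carry, had 211, 253, 285 and 362 counts. Its highest level was in sFD17, where the fold was 1.73 (1.44 to 2.08), against 1.16 (0.958 to 1.39) in TP5 and 1.26 (1.06 to 1.503) in FR17. No library was called for Kit.

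Il4 (chr11:53602982-53618669), the type 2 cytokine that basophils, mast cells and T cells secrete, had 20 counts in Ctrl, 52 in TP5, 23 in sFD17 and 45 in FR17. TP5 was the highest library for this gene. Il4 rose 2.50-fold in TP5 (1.47 to 4.43), with folds of 1.47 (0.773 to 2.83) in sFD17 and 1.66 (0.958 to 2.96) in FR17. Cd200r3 (chr16:44943678-44981380), an activating receptor of the CD200 receptor family that is used to identify mouse basophils, had 21, 44, 19 and 69 counts. Ctrl and sFD17 were low, and TP5 and FR17 high. Cd200r3 rose 2.42-fold in FR17 (1.47 to 4.15), and in TP5 the ratio was 2.02 (1.17 to 3.57) but the log2 fold change was 0.95 with the prior count, just short of the call. In sFD17 the ratio was 1.16 (0.589 to 2.26), and its log2 fold change went from 0.20 to -0.004 when libraries were scaled by size alone.

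Hdc (chr2:126593667-126619299) encodes histidine decarboxylase, the enzyme that makes histamine, and is also transcribed in immature myeloid cells and neutrophils. It had 61509 counts in Ctrl, 47794 in TP5, 75252 in sFD17 and 44552 in FR17, or 3641, 2725, 5702 and 1941 CPM. The order was unlike that of any other member, with sFD17 highest and FR17 lowest. The folds were 0.748 (0.739 to 0.757) in TP5, 1.57 (1.55 to 1.58) in sFD17 and 0.533 (0.527 to 0.540) in FR17, none past the call. Because Hdc held nearly all of the group's counts, the summed fold of the 10 genes followed it (0.753, 1.57 and 0.544 in TP5, sFD17 and FR17), whereas the other 9 summed to 1.33, 1.65 and 1.91.

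Per kilobase of gene length and on the CPM scale, Hdc was at 570.0 in Ctrl and every other member lay between 0.208 (Cd200r3) and 1.67 (Gata2). After Hdc, the intervals of every pair of neighbours in the Ctrl order overlapped. In FR17 the order was Hdc at 303.8, Prss34 at 7.49, Mcpt8 at 4.58, Gata2 at 2.79, Cpa3 at 2.58 and Kit at 1.77 CPM per kilobase, and the intervals of Prss34, Mcpt8 and Gata2 did not overlap from one to the next. Prss34 was thus the seventh of the 10 by level in Ctrl (0.876 CPM per kilobase) and the second in FR17. In sFD17 it was also second, at 3.86, with an interval that overlapped that of Gata2 at 2.57. In TP5 the second place was held by Mcpt8 at 3.26, which overlapped Prss34 at 2.72.

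Counted over the group, 3 of the 10 genes were called higher in TP5 (Prss34, Mcpt8 and Il4), beside 3.19% of all tested genes. The count was 3 in sFD17 (Prss34, Mcpt8 and Fcer1a), beside 5.32%, and 5 in FR17 (Prss34, Mcpt8, Cpa3, Fcer1a and Cd200r3), beside 3.91%. Fcer1a reached 10 counts only in sFD17 and FR17, where it was called, and was not tested when every library had to reach 10. Among the 7629 genes with a mean count between those of Fcer1a and Kit, the shares were 2.99%, 4.9% and 3.78%. None of the 10 was called lower in any peptide library, beside 4.99%, 6.47% and 3.57% of tested genes in TP5, sFD17 and FR17. With library size alone, or a prior count of 0.5, Ms4a2 in sFD17 was past the threshold, at -1.09 and -1.003 on the log2 scale. The median log2 fold change of the members was 0.34, 0.63 and 0.87, and that of all tested genes 0.001, -0.025 and 0.024. As the group was chosen on these contrasts, nothing is read from the gap between members and background. The 3 comparisons share the Ctrl library.

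**Figure D2:**
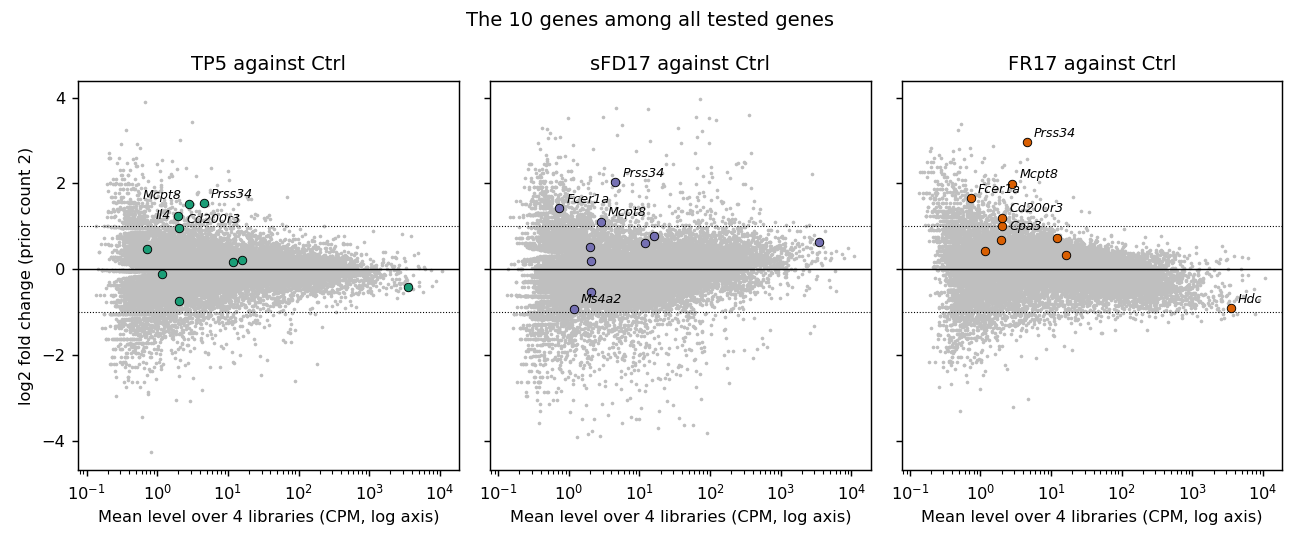
Log2 fold change against Ctrl (y axis, prior count 2) by mean level over the 4 libraries (x axis, CPM, log axis) in 3 panels, one for each peptide library, with every tested gene in grey and the 10 members in colour. Dotted lines mark 2-fold, and Prss34 sits at 1.54, 2.03 and 2.97 in TP5, sFD17 and FR17.

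The 3 peptides were given at the same dose over the same days, so their libraries were also set against each other, in 3 pairs for each gene. FR17 and sFD17 differ in the order of the pentapeptide. Prss34 was 1.94-fold higher in FR17 than in sFD17 (1.45 to 2.62) and Mcpt8 1.89-fold higher (1.26 to 2.90), both under the call. Both were called with library size alone, and Prss34 also with no filter on low counts. The members called higher in FR17 than in sFD17 were Cpa3 at 3.04-fold (1.80 to 5.45), Ms4a2 at 2.80-fold (1.29 to 6.94) and Cd200r3 at 2.09-fold (1.24 to 3.68), that is 3 of 10 beside 11.3% of tested genes. Cd200r3 was not called with DESeq2 size factors, and Ms4a2, like Fcer1a, was not tested when 10 counts were required in every library. Kit and Hdc went the other way. Hdc was called lower in FR17, at 0.340 (0.336 to 0.344), as 1 of 10 beside 10.8% of tested genes, and Kit at 0.730 (0.624 to 0.856) was not called. For Fcer1a, Gata2 and Il4 the ratios of 1.19 (0.595 to 2.52), 1.09 (0.906 to 1.31) and 1.125 (0.666 to 1.95) had intervals that included 1.

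FR17 and TP5 share the pentapeptide and differ in whether it is carried on the assembling peptide. Prss34 was 2.75-fold higher in FR17 (2.05 to 3.75), Cpa3 3.62-fold (2.19 to 6.29) and Fcer1a 2.58-fold (1.14 to 6.57), again 3 of 10 called, beside 7.04% of tested genes. Mcpt8 stood at 1.41 (1.01 to 1.98) and Cd200r3 at 1.20 (0.809 to 1.79), while Il4 had a ratio of 0.661 (0.434 to 1.005). Between sFD17 and TP5 only Hdc was called higher in sFD17, at 2.09-fold (2.07 to 2.12), 1 of 10 beside 6.74%. That call was lost with library size alone, and Fcer1a was added to it with a prior count of 0.5. Prss34 had a ratio of 1.42 (0.977 to 2.07) and Mcpt8 0.746 (0.468 to 1.17) in that pair, with intervals that included 1. Il4 was lower in sFD17 than in TP5, with a ratio of 0.588 (0.343 to 0.978) that stayed short of the call. With 1 library per peptide these ratios carry no error between mice.

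Like the basophil proteases, the mast cell proteases were highest in FR17, but in TP5 they were lower than in Ctrl. Cma1 and Mcpt4 encode chymases and Tpsb2 a tryptase of connective tissue mast cells. In Ctrl, TP5, sFD17 and FR17, Cma1 had 24, 5, 18 and 77 counts, Mcpt4 had 13, 1, 5 and 44, and Tpsb2 had 19, 7, 5 and 47. All 3 were lower in TP5 than in Ctrl, with folds of 0.201 (0.0598 to 0.536) for Cma1, 0.0741 (0.00174 to 0.493) for Mcpt4 and 0.355 (0.126 to 0.881) for Tpsb2. FR17 was the highest library for each, at 2.36-fold (1.48 to 3.91) for Cma1, 2.49-fold (1.32 to 5.04) for Mcpt4 and 1.82 (1.05 to 3.28) for Tpsb2, the last not called. In sFD17 Tpsb2 fell, at 0.337 (0.0983 to 0.933), Cma1 was at 0.960 (0.491 to 1.85), and Mcpt4 at 0.492 (0.137 to 1.47) was not called.

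With Cpa3 these 3 genes make a set of 4, put together after the values were seen, whose ratio to the basophil proteases within a library does not depend on the scaling between libraries. Prss34 and Mcpt8 summed to 36 counts against 88 for the mast cell set in Ctrl, a ratio of 0.409 (0.270 to 0.609). The ratio was 3.59 (2.41 to 5.50) in TP5, from 115 and 32 counts, 2.09 (1.45 to 3.05) in sFD17, from 94 and 45, and 1.22 (1.03 to 1.44) in FR17, from 314 and 258. As both parts of the ratio were chosen with these values in view, it describes the 4 libraries and supports nothing further. The mast cell set as a whole was 2.16-fold the Ctrl level in FR17 (1.69 to 2.78), 0.350 in TP5 (0.226 to 0.530) and 0.6545 in sFD17 (0.447 to 0.948).

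The wider list of 12 mast cell genes, made of proteases, receptors, the amine transporter gene Slc18a2 and the transcription factor gene Mitf, had 6 that were tested, and 4 without a count in any library (Tpsg1, Mcpt1, Mcpt2 and Mcpt9), where 3 counts would be 0.178, 0.171, 0.227 and 0.131 CPM in Ctrl, TP5, sFD17 and FR17. The mast cell receptor gene Mrgprb2 had 2 counts in Ctrl, 5 in FR17 and 0 in the other libraries, so this defining marker was close to absent. Of the 6 tested, 0 were called higher and 3 lower in TP5, 0 and 2 in sFD17, and 3 and 0 in FR17. Tpsab1, among these 6, had 2, 2, 0 and 10 counts in Ctrl, TP5, sFD17 and FR17 and was tested only through FR17. It was among the genes called lower in sFD17 and higher in FR17. The medians were -0.68, -0.77 and 0.99, and they were 0.12, -0.05 and 0.11 when only genes with 10 counts in every library were kept, since that left only Mitf and Slc18a2. Mitf also counts among the transcription factors.

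**Figure D3:**
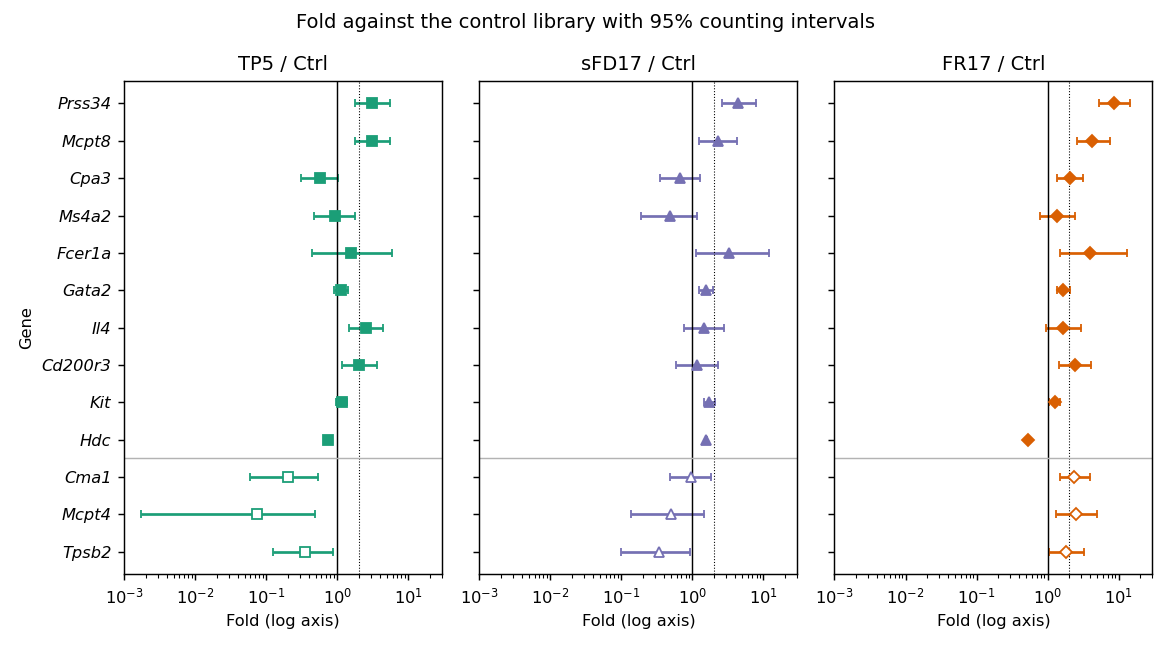
Fold against Ctrl (x axis, log axis) with exact 95% counting intervals for the 10 members (filled symbols) and 3 mast cell proteases (open symbols) in TP5, sFD17 and FR17. The solid line marks a fold of 1 and the dotted line 2-fold, and in TP5 Prss34 and Mcpt8 lie right of the dotted line, at 3.10 and 3.05, while Cma1, Mcpt4 and Tpsb2 lie left of 1, at 0.201, 0.0741 and 0.355.

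Both basophil protease genes stand in clusters of related proteases, and their neighbours were looked at by position. Prss28, a serine protease gene 8.48 kb from Prss34, had 2 counts in Ctrl, 1 in FR17 and 0 elsewhere, and Prss29, 18.5 kb away, had none. The tryptase gene Tpsab1, 43.1 kb away, had 2, 2, 0 and 10 counts. Of the 10 neighbours listed for Prss34, 7 had at most 3 counts in every library. Ctsg, which encodes the neutrophil protease cathepsin G and is 14.6 kb from Mcpt8, had 12, 24, 15 and 25 counts, and Gzmb, the cytotoxic granzyme B gene 173.6 kb away, had 111, 122, 119 and 321. Of the 14 neighbours of Mcpt8, 9 had no counts. Over both clusters 7 of 24 genes were tested, with 0 called higher and 3 lower in TP5 (median -0.03), 0 and 2 in sFD17 (median -0.26) and 4 and 0 in FR17 (median 1.08). Cma1, Mcpt4, Tpsb2 and Tpsab1 were among the 7 and also belong to the mast cell list, so their calls are counted in both. Among genes with 10 counts in every library the medians were 0.10, 0.45 and 0.56.

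Of 18 other basophil genes listed, 17 were tested, with 3 called higher and 0 lower in TP5 (median -0.14), 1 and 2 in sFD17 (median 0.24) and 1 and 1 in FR17 (median -0.22, or 0.02 with library size alone). Il13, the type 2 cytokine of mucus production, had 5, 24, 30 and 14 counts in Ctrl, TP5, sFD17 and FR17, a fold of 4.62 (1.73 to 15.51), 7.68 (2.95 to 25.4) and 2.06 (0.701 to 7.31), called in TP5 and sFD17. Ptger3, a prostaglandin E2 receptor gene, had 41, 23, 13 and 26 counts and was called lower in sFD17 (0.406) and FR17 (0.467). Il6, an inflammatory cytokine gene, was at 1502, 1378, 509 and 1622 counts and fell in sFD17, to 0.434.

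The machinery behind the IgE receptor is mostly shared with other leukocytes, and few of its genes were called. All 14 genes listed were tested, none was called in TP5 (median -0.15) or sFD17 (median 0.25), and 1 was called higher in FR17 (median -0.29). That gene was Lat, a linker of T cells and mast cells, with 107, 113, 71 and 347 counts in Ctrl, TP5, sFD17 and FR17, a rise of 2.39-fold (1.92 to 2.99) in FR17. The largest folds of the kinase gene Fyn, 1.63 in TP5, and of the phospholipase gene Plcg2, 1.58 in sFD17, were not called. Of 13 transcription factors of the lineages, 1 was called higher in TP5 and 1 in FR17, in each case Gata1, the factor of erythroid cells, mast cells and eosinophils, on 1, 13, 1 and 7 counts, with a ratio of 12.5 (1.88 to 532) in TP5 and 5.15 (0.662 to 232) in FR17. Their medians of -0.09, -0.01 and 0.01 were near 0, and the last 2 changed sign with DESeq2 size factors. Cebpa at 0.517 in sFD17, Tal1 at 0.583 in sFD17 and Mitf at 0.615 in sFD17 were not called.

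For the cytokines that grow or alert these cells, and their receptors, every call against Ctrl was lower. Il3, which encodes the main basophil growth factor, had no counts. Of the other 12 genes 0 were called higher in any peptide library, and 2, 2 and 1 were called lower in TP5, sFD17 and FR17 (medians -0.29, 0.00 and 0.19). In FR17, 8 of the 12 were above 0 and 4 below. Kitl, which encodes stem cell factor, had 237, 112, 84 and 394 counts and fell to 0.455 in TP5 and 0.454 in sFD17. Tslp, an epithelial alarmin gene, had 21, 20, 3 and 53 counts and fell to 0.183 (0.0349 to 0.612) in sFD17. Il1rap, which encodes the shared receptor chain for IL-1 and IL-33, had 4661, 3085, 4659 and 2374 counts and fell to 0.375 in FR17.

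Among 9 type 2 cytokine and receptor genes, 7 were tested and Il9 had no counts. In TP5 2 were called higher and 0 lower, in sFD17 2 and 0, and in FR17 0 and 0 (medians 0.60, 0.18 and 0.28, the second of which was -0.04 with library size alone). Besides Il13, Il9r, the IL-9 receptor gene, rose 2.94-fold in TP5 (2.03 to 4.33) on 39 and 119 counts, and Il2rg, the common γ chain gene, rose 2.23-fold in sFD17 (2.05 to 2.42) on 872 and 1518 counts. Histamine and lipid mediator genes had 10 of 12 tested, with 0 called higher and 1 lower in TP5, 0 and 3 in sFD17 and 0 and 0 in FR17 (medians -0.17, -0.19 and -0.14, the last 0.11 with library size alone). Ltc4s, the leukotriene C4 synthase gene, had 273, 116, 50 and 437 counts and fell to 0.409 in TP5 and 0.234 in sFD17. Hpgds, the prostaglandin D2 synthase gene, had 417, 233, 82 and 615 and fell to 0.252 in sFD17, as did Hrh1, a histamine receptor gene, to 0.444.

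In the family around Cd200r3, the calls of the other genes against Ctrl were in sFD17 only. Of 4 genes for CD200 and its other receptors 3 were tested, and 2 were called lower in sFD17 with 0 called in TP5 and FR17 (medians -0.43, -1.01 and 0.23). Cd200r4, another activating receptor gene, had 239, 183, 63 and 381 counts, a fold of 0.337 (0.251 to 0.447) in sFD17. Cd200r1, the inhibitory receptor gene, had 278, 326, 107 and 463, a fold of 0.493 in sFD17, and Cd200 itself was not called, with 0.736 in TP5, its largest difference.

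Markers of other cells moved with the FR17 library too. The NK cell list summed to 683, 578, 452 and 2778 counts in Ctrl, TP5, sFD17 and FR17, a fold of 2.99 (2.75 to 3.26) in FR17, where 9 of its 10 genes were called higher, among them Gzma with 247 and 1090 counts in Ctrl and FR17. Klrd1, with 102 and 269 counts in Ctrl and FR17, was the exception, at 1.94. T cell and ILC2 markers were at 1.65 (1.55 to 1.76) in FR17, with 4 of 11 called higher, and their most abundant genes Cd4 (1.41) and Il7r (1.42) not among them. These cells can also express Il4, and their part in the results above was not tested. In TP5 and sFD17 the NK cell list stood at 0.815 and 0.847 and the T cell and ILC2 list at 0.988 (0.918 to 1.06) and 0.667. The T cell and ILC2 medians were 0.31 in TP5 and -0.18 in sFD17, with 7 and 4 of the 11 genes above 0.

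The sum of the eosinophil markers stood at 0.722, 0.482 and 1.26 in TP5, sFD17 and FR17, carried by Siglecf and Ear1, while their medians were 0.44, -0.12 and 0.58 on the log2 scale, with 2, 2 and 3 of 7 tested genes called higher and 1, 1 and 0 lower. All 7 were above 0 in FR17, against 5 in TP5 and 3 in sFD17. Prg2, which encodes eosinophil major basic protein and is also transcribed in basophils, had 19, 72, 32 and 158 counts in Ctrl, TP5, sFD17 and FR17. Like Prss34 and Mcpt8, with TMM scaling it was called higher in all 3 peptide libraries, at 3.65-fold (2.18 to 6.41), 2.16-fold (1.19 to 4.03) and 6.12-fold (3.79 to 10.4). Epx, the eosinophil peroxidase gene, had 2, 3, 10 and 29 counts and was called higher in sFD17 and FR17, and Ccr3, the eotaxin receptor gene, had 57, 134, 41 and 84 and was called higher in TP5. The part of eosinophils in the members' levels was not tested. Immature granulocyte markers were higher in all 3, at 1.90, 1.81 and 1.40, with 3, 2 and 1 of 6 called higher. The most abundant of them was Cebpe, with 467, 866, 681 and 788 counts, followed by Prtn3. Stem and progenitor markers summed to 1.555, 1.17 and 1.37, with medians of -0.56, 0.15 (-0.06 with library size alone) and 0.55. The TP5 sum was carried by Flt3 (2.445), called higher there, while 4 of 6 tested genes were below 0 and 1 was called lower. Cd34 was not called and Hoxa9 had no counts. Neutrophil markers, led by S100a9 and S100a8, were at 1.08, 1.29 and 0.877, and their FR17 median of -0.10 was 0.14 with library size alone.

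Of the lung and blood lists, macrophage markers were at 0.786, 0.340 and 1.301 in TP5, sFD17 and FR17, with 7 of 9 called lower in sFD17, C1qa among them at 0.297 and Chil3 at 0.358. Platelet and megakaryocyte markers summed to 0.420, 0.290 and 1.28, but Pf4 carried these sums, and the medians were 0.07, 0.27 and 0.66, with 5 of 6 tested genes above 0 in sFD17. Itga2b was next in abundance, and Gp1bb had no counts. Endothelial markers summed to 0.696, 1.03 and 1.28, with medians of -0.95, 0.03 (-0.19 with library size alone) and 0.41. In TP5 7 of their 8 genes were below 0 and 4 were called lower, among them Cdh5 (0.407) but not the most abundant, Pecam1 (1.06), and in FR17 all 8 were above 0 with none called. Melanoma markers reached only 22 to 39 counts per library, most of them Pmel, with Sox10 at 8 counts in FR17 and at most 3 in the others, and Tyr and Tyrp1 had none. The part of any of these cells in the levels of the members, or of the other genes listed above, was not tested.

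**Figure D4:**
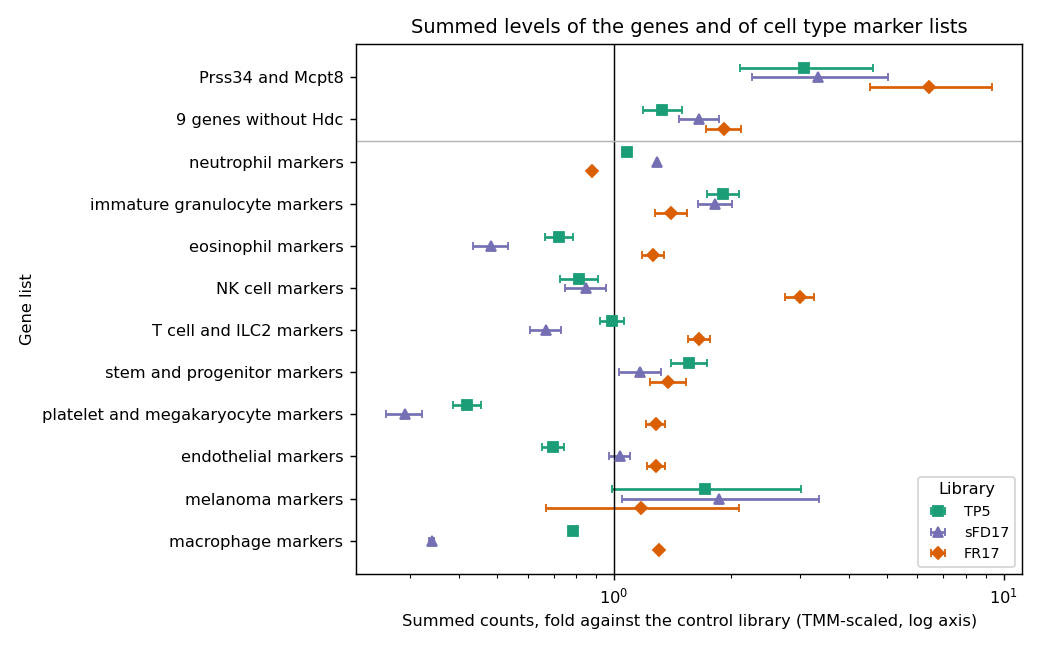
Summed counts of each list as a fold against Ctrl (x axis, log axis, TMM-scaled) with exact 95% counting intervals, for Prss34 with Mcpt8, the 9 members without Hdc, and 10 marker lists, with 1 symbol for each peptide library. Prss34 with Mcpt8 stands at 3.08, 3.34 and 6.42 in TP5, sFD17 and FR17, and the NK cell list at 0.815, 0.847 and 2.99.

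The genes with the profiles most like the basophil proteases were sought among 14262 genes with at least 20 counts in 1 library, by the Euclidean distance between log2 CPM values centred on each gene's mean over the 4 libraries. With 4 libraries that share their scaling, such a ranking is a description. The nearest to Prss34 were the immunoglobulin variable genes Ighv5-16 and Igkv12-41, both at 0.59, then Myl7, an atrial myosin light chain gene, Mybphl, Klk1, Eya2, Nrgn and Tnfsf11, from 0.68 to 0.81. Ighv5-16 had 1, 4, 4 and 24 counts in Ctrl, TP5, sFD17 and FR17. The nearest to Mcpt8 was Eya2, a transcriptional coactivator gene, at 0.19 with 9, 29, 18 and 65 counts, followed by AI661453, Rab4a, the chemokine receptor genes Ccr4 and Ccr8, Myl7, Pimreg and Il2ra, from 0.29 to 0.39. Ccr8 had 15, 34, 26 and 78 counts, and Il2ra, the IL-2 receptor α chain gene, 20, 75, 51 and 122. Prss34 and Mcpt8 were 0.94 apart, farther from each other than either was from its 8 nearest genes. Mcpt8 was nearer to Cd200r3, at 0.70, than to Prss34, and among all pairs of members the closest were Gata2 and Kit, at 0.43.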

How the data were processed

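Per the labels, sorted lung CD11b+Ly6g+ cells gave 1 mRNA library for each of 4 groups. The deposited values are unnormalized counts of reads by gene, with gene coordinates and length. The submitters' processing notes name HISAT2 2.0.5, StringTie 1.3.3b, featureCounts 1.5.0-p3, edgeR 3.18.1 and GRCm38.p6, with no role or order. The library kit keeps strand, and whether counting used it is not given in the sources used here. Of the members, only Cpa3 and Mcpt8 overlap other genes, each a microRNA gene with at most 1 count over the 4 libraries.

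The members and gene lists were chosen with earlier results of these data known. Columns were matched to groups by name, with 0 columns left unmapped. Where a symbol had several rows (100 symbols), its most counted row was kept, leaving 54429 genes. A gene was compared if any library reached 10 counts (16367). Analysis used R 4.3.3 with edgeR 4.0.16 (TMM, prior count 2), Python 3.11.15 and matplotlib 3.10.9, and was tested on simulated data. The simulation drew Poisson counts and placed changes only in well counted genes, so it did not check calls at the counts of most members. Folds are ratios of counts over TMM-scaled library sizes with exact conditional binomial intervals, levels have exact Poisson intervals, both at 95%, and calls need a 2-fold change. A pair of libraries without replicates allows no test of a condition, and none was made. All members were named, with up to 3 genes of each list by size of change (20 counts or more in a library), the 8 genes nearest in profile to Prss34 and to Mcpt8, and in each cell type list the most abundant pair and genes without counts. Genes outside this rule (Tpsab1, Mrgprb2, Slc18a2, Fcer1g, Prss28, Prss29, Ctsg, Gzmb, Gata1, Prg2, Epx and Ccr3) were named after their values were seen. Promoters came from RefSeq. Alternatives were DESeq2 1.42.0 size factors, library size alone, a prior count of 0.5, other filters (13465 genes had at least 10 counts in every library) and a counting interval that excludes 1.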

Additional observations from a re-analysis of the deposited data

How the results depend on the processing

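No paired analysis was possible because each group has 1 library. The summed fold of the 10 members in TP5, sFD17 and FR17 was 0.753, 1.57 and 0.544. Without Hdc it was 1.33, 1.65 and 1.91, which turns the direction in TP5 and FR17. With library size alone it was 0.780, 1.349 and 0.645, and with DESeq2 size factors 1.612 in sFD17. Members called higher in FR17 than in sFD17 numbered 5 with library size alone (Prss34 and Mcpt8 added), against 3. They numbered 4 with no filter on low counts (Prss34 added) and 2 with DESeq2 size factors (Cd200r3 lost). In sFD17 against TP5 they numbered 0 with library size alone and 2 with a prior count of 0.5 (Fcer1a and Hdc), against 1. The median log2 fold change of all genes was 0.05, -0.23 and 0.26 in TP5, sFD17 and FR17 with library size alone, against 0.001, -0.025 and 0.024 with TMM. The causes of these shifts were not tested. The background among genes of like mean count was chosen after seeing the data. The counts of the 9 members other than Hdc, from 5 to 362 per library, limit every fold, and no interval covers variation between mice.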
